A study of Rattus norvegicus with 6 samples.

Results

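Actin filaments grow mainly at their fast-growing barbed ends, and the genes described here encode proteins that act there or on the filament behind them. The 10 genes were chosen by name: the capping protein subunits Capza1, Capza2 and Capzb, the gelsolin-family cap Capg, the Arp2/3 complex subunits Actr3, Arpc1b, Arpc2 and Arpc5, the cofilin gene Cfl1 and the profilin gene Pfn1. All 10 were matched by symbol among the 20609 genes of the deposited count table, and all 10 were among the 12624 genes with enough counts for a test. Capping protein, a dimer of an alpha and a beta subunit, blocks barbed ends, whereas the Arp2/3 complex starts new filaments as branches on existing ones. Cofilin severs and disassembles older filaments, and profilin binds actin monomers and delivers them to growing ends. Together they set the turnover of actin in lamellipodia and growth cones.

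The libraries are labelled PC12, a line of chromaffin tumor cells derived from the adrenal medulla of a rat. In 3 of them the cells had received a control plasmid (control), and in the other 3 a plasmid for EGFP-tagged PCBP-1, an RNA-binding protein, by Lipofectamine (PCBP1-OE). In the paper's methods only the PCBP-1 plasmid is named, and no selection of cells is described. Elsewhere the paper calls the overexpression stable and constitutive. The study asked how transcript levels and splicing respond to more PCBP-1. The time of harvest for RNA-seq is not given in the sources used here. The study calls the libraries of a group biological replicates without saying whether they came from separate cultures, so p-values measure the spread between these samples. Counts of PCBP-1 itself were not matched, and its overexpression was not analysed here.

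Poly-A RNA was sequenced and uniquely mapped reads were counted per gene. The control libraries held 20268725, 21256970 and 22315623 counts, and the PCBP1-OE libraries 21367196, 19822383 and 19730209. Levels are given as CPM, counts scaled to a common library size with TMM factors, and they are compared between libraries for the same gene only, because no transcript lengths were used. A gene was called at a false discovery rate (FDR) of 0.05 or less in edgeR's quasi-likelihood test over all 12624 genes.

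Markers of chromaffin cells ranged from near 0 to a mean of 7.84 CPM in these libraries. Of 8 chromaffin cell markers, 7 were in the table and 3 passed the filter: Th averaged 7.84 CPM, Gata3 1.55 and Slc18a1 0.987. Dbh, Ddc, Chga and Chgb had 0 to 9 counts in each library. Sox10, a marker of glia, averaged 384 CPM and Pdgfra, a marker of fibroblasts, 213 CPM. The cells are therefore referred to by their label only. Because the libraries are from bulk RNA, fewer cells with a transcript and less of it per cell cannot be told apart.

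In PCBP1-OE, 3 of the 10 genes were lower at FDR 0.05: Capg, Pfn1 and Cfl1, with changes of -16.4%, -12.8% and -12.6%. Among all genes tested, 631 (5.0%) were called lower, 562 (4.45%) higher and 1193 (9.45%) in either direction. Only 24 genes (0.190%) were called with a change of at least 2-fold, and none of the 10 was among them. The 10 genes had a median log2 fold change of -0.090 and ranged from -0.26 to 0.093, while the median over all genes tested was 0.0029.

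Most genes with many counts had negative values. At or above a mean of 253 CPM, the mean of Capza1 and the lowest of the 10, stood 670 genes, of which 137 (20.4%) were called lower and 160 (23.9%) in either direction. Their median log2 fold change was -0.082, and 507 of the 670 were negative. The median lay between -0.093 and -0.063 over the 13 alternative settings, and that of the 10 genes between -0.098 and -0.071. The number called lower was 268 without control 3 and 125 without PCBP1-OE 3, but 23 without control 1, 3 without control 2, 14 without PCBP1-OE 1 and 6 without PCBP1-OE 2. With all libraries it was 89 with upper-quartile scaling, 236 with no filter, 230 with DESeq2, 0 with the replicate block and 133 to 156 under the other settings. This background was chosen after the values were seen. Against it, 3 of 10 called lower and a median of -0.090 were near the values of other genes counted as often, and are not a result particular to the actin genes.

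**Figure D1:**
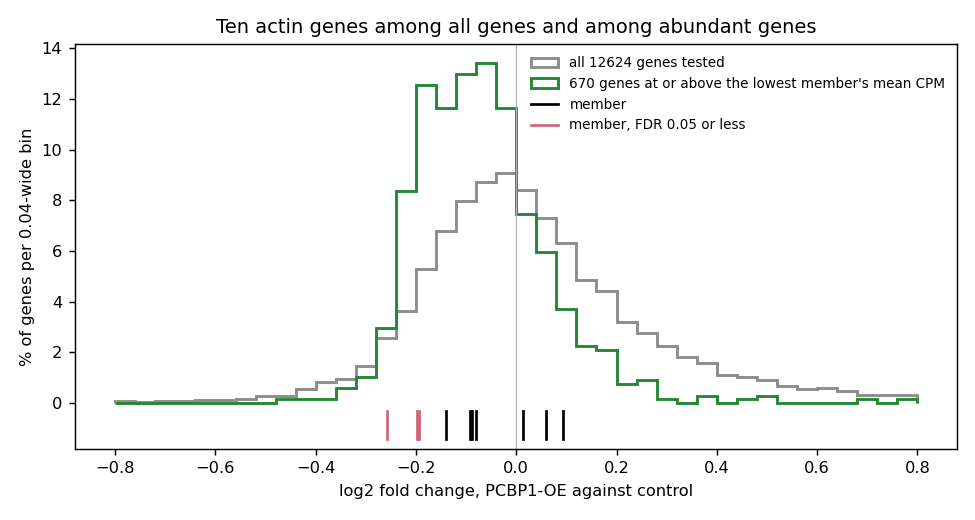
Distribution of log2 fold changes, PCBP1-OE against control, as percent of genes per bin, for all 12624 genes tested (grey) and for the 670 genes at or above the lowest member's mean CPM (green); ticks mark the 10 actin genes, red where FDR is 0.05 or less. The green distribution spans 0, with a median of -0.082 and 163 of the 670 genes positive, and the ticks spread from -0.26 to 0.093 within it.

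The 10 genes did not move as a block. For 7 of them the groups did not overlap, 6 with every PCBP1-OE library below every control and 1, Actr3, the other way. Over all genes tested, groups did not overlap for 3866 (30.6%), and among the 670 genes for 266 lower and 63 higher. The summed level of the 10 genes was 7538, 7560 and 7143 CPM in the controls and 6678, 6695 and 6954 CPM in PCBP1-OE. Control 3 was the lowest control and PCBP1-OE 3 the highest PCBP1-OE library, so the groups came closest in the libraries numbered 3.

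**Figure D2:**
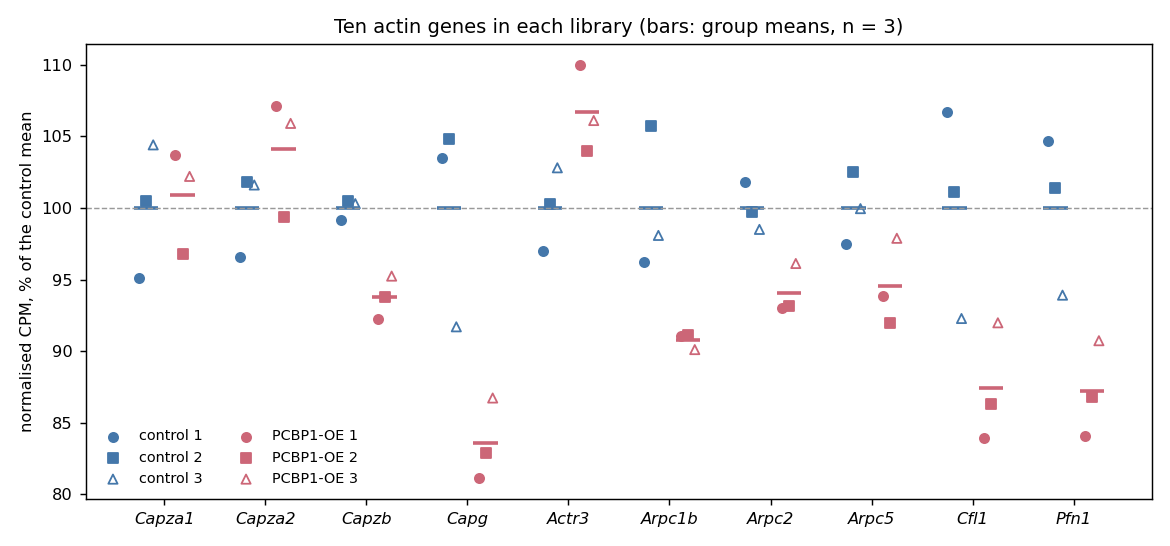
Normalised CPM of the 10 actin genes in each library as percent of the gene's control mean (points, 3 libraries per group; bars, group means; open triangles, replicate 3; the axis does not start at 0). Capg, Cfl1 and Pfn1 lie lowest in PCBP1-OE, and for these 3 genes control 3 and PCBP1-OE 3 lie closest to each other.

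Among the capping genes, Capzb (ENSRNOG00000007330, chromosome 5) encodes the beta subunit of capping protein. The study also examined its splicing, which counts per gene do not resolve. Capzb stood at 304, 308 and 307 CPM in the controls and at 283, 287 and 292 CPM in PCBP1-OE. All 3 PCBP1-OE libraries were below all 3 controls, and the controls lay within a narrow band. The mean went from 306 ± 2.24 to 287 ± 4.53 CPM (SD, n = 3), a log2 fold change of -0.093 (SE 0.040), and the gene was not called (edgeR adjusted p = 0.147, 0.130 to 0.384 over 13 alternative settings).

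The alpha subunits gave no such separation. Capza1 (ENSRNOG00000013538, chromosome 2) was at 239.5, 253 and 263 CPM in the controls and at 261, 244 and 257 CPM in PCBP1-OE. Capza2 (ENSRNOG00000056207, chromosome 4) was at 381, 401 and 400.5 CPM in the controls and at 422, 392 and 418 CPM in PCBP1-OE. The groups overlapped for both genes, with all PCBP1-OE libraries inside the range of the controls for Capza1 and PCBP1-OE 2 inside it for Capza2. The log2 fold changes were 0.013 (SE 0.048, edgeR adjusted p = 0.889) for Capza1 and 0.058 (SE 0.046, adjusted p = 0.433) for Capza2. For Capza2 it was 0.038 without PCBP1-OE 1 and 0.091 without PCBP1-OE 2. The sign for Capza1 was negative without control 1 (-0.016) and without PCBP1-OE 1 (-0.0078).

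Since the beta subunit pairs with either alpha subunit, the counts of Capzb were also set against the summed counts of Capza1 and Capza2 in the same library, a ratio that needs no scaling between libraries. It was chosen after the values were seen and is given with no test. Capzb had 49.0, 47.1 and 46.3 counts per 100 alpha subunit counts in the controls and 41.4, 45.2 and 43.2 in PCBP1-OE. Each PCBP1-OE library was below each control. The difference was -4.19, and it lay between -5.16 and -3.24 when each library was left out in turn.

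Within the alpha pair, Capza1 held 38.6%, 38.7% and 39.6% of the counts in the controls and 38.2%, 38.4% and 38.1% in PCBP1-OE. The groups did not overlap, but control 3 stood above the other controls by more than the difference between the group means, -0.736 percentage points. That difference was -0.410 without control 3. The two-sided exact permutation p was 0.1, which 3 libraries a group cannot go below, and 0.233 after adjustment over the 7 paralog shares examined.

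Capg (ENSRNOG00000013668, chromosome 4), a member of the gelsolin family that caps barbed ends without severing, had the largest log2 fold change of the 10. Capg was at 763, 773 and 676 CPM in the controls and 598, 611 and 639.5 CPM in PCBP1-OE. Controls 1 and 2 stood well above the rest, control 3 was nearer to PCBP1-OE 3 than to either of them, and the groups did not overlap. Capg fell from 737 ± 53.2 to 616 ± 21.1 CPM (SD, n = 3), a change of -16.4% and a log2 fold change of -0.26 (SE 0.054), with an edgeR adjusted p of 0.0168.

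The call for Capg depended on the libraries used. Over 13 alternatives its adjusted p ranged from 7.2e-07 to 0.122 and it was called in 8. It was not called without control 1 (0.0679), control 2 (0.105), PCBP1-OE 1 (0.0828) or PCBP1-OE 2 (0.0777). Its log2 fold change stayed negative in all 13, between -0.32 and -0.22.

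Of the 17 other capping and severing genes tested, from 22 listed, only Mtpn was called, and it was higher, beside 9.45% of all genes tested called in either direction. Mtpn encodes myotrophin, an inhibitor that binds capping protein. It stood at 53.1, 53.0 and 59.7 CPM in the controls and at 67.1, 62.8 and 64.0 CPM in PCBP1-OE. Control 3 was the highest control, still below every PCBP1-OE library. The log2 fold change was 0.22 (SE 0.058, edgeR adjusted p = 0.0335, 0.00188 to 0.140 over the alternatives), and the call was lost when any library other than control 3 was left out (adjusted p without control 1 was 0.10, control 2 0.140, PCBP1-OE 1 0.137, PCBP1-OE 2 0.0842 and PCBP1-OE 3 0.0564). The median log2 fold change of the 17 was 0.030.

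The Arp2/3 complex consists of the actin-related proteins Arp2 (Actr2) and Arp3 (Actr3), which form the first subunits of the new branch, and of the Arpc subunits that hold them on the mother filament. Actr3 (ENSRNOG00000003206, chromosome 13) was at 452, 467 and 479 CPM in the controls and at 512, 484 and 494 CPM in PCBP1-OE. It was the only one of the 10 genes with every PCBP1-OE library above every control, the gap between control 3 and PCBP1-OE 2 being narrow. The log2 fold change was 0.093 (SE 0.044), and the gene was not called (edgeR adjusted p = 0.180, 0.0785 to 0.442 over the alternatives).

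The Arpc subunits lay on the other side. Arpc1b (ENSRNOG00000000991, chromosome 12) was at 976, 1072 and 995 CPM in the controls and at 923, 925 and 914 CPM in PCBP1-OE. Control 2 stood above the other controls, while the 3 PCBP1-OE libraries were nearly equal and all lower. The mean went from 1014 ± 51.2 to 921 ± 5.81 CPM (SD, n = 3), a log2 fold change of -0.14 (SE 0.046, edgeR adjusted p = 0.0699). Over the alternatives the adjusted p ran from 0.0150 to 0.255, and the gene was called with no filter (0.0150), with DESeq2 (0.0200) and without control 3 (0.0246). Without control 2 the log2 fold change of Arpc1b was -0.092 (adjusted p = 0.255).

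Arpc2 (ENSRNOG00000014289, chromosome 9), a core subunit that contacts the mother filament, was at 968, 949 and 937 CPM in the controls and at 885, 886.5 and 915 CPM in PCBP1-OE. The groups did not overlap, with PCBP1-OE 3 the closest to the controls. Arpc5 (ENSRNOG00000028062, chromosome 13) was at 267.5, 281 and 274 CPM in the controls and at 257.5, 252 and 268.5 CPM in PCBP1-OE. Here PCBP1-OE 3 was above control 1, and the groups overlapped. Neither gene was called, with log2 fold changes of -0.088 (SE 0.041, edgeR adjusted p = 0.180) for Arpc2 and -0.081 (SE 0.044, adjusted p = 0.246) for Arpc5.

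Across the whole complex, 10 genes were listed and tested, 7 with a negative and 3 with a positive log2 fold change, and the median was -0.092. Among the 670 genes at or above 253 CPM, which not all genes of the complex reach, 507 were negative and the median was -0.082, near that of the complex. The 3 positive genes were Actr3, Actr2 and Actr3b, the actin-related subunits, and the 7 negative ones were the Arpc genes, in each of the 13 alternatives too. Arpc3, outside the 10 members, was the only gene of the complex called, beside 9.45% of all genes tested. It was at 335, 336 and 311 CPM in the controls and at 265, 286 and 289 CPM in PCBP1-OE. Every PCBP1-OE library was lower than control 3, the lowest control. Arpc3 fell by 0.23 on the log2 scale (SE 0.049, edgeR adjusted p = 0.0185, 0.00025 to 0.128 over the alternatives). It was not called without control 1 (0.0915), control 2 (0.128), PCBP1-OE 1 (0.107) or PCBP1-OE 2 (0.0644).

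Actr2 had the largest difference among the well counted genes of the complex, but its libraries were uneven. Its level was 59.5, 61.2 and 84.5 CPM in the controls and 91.2, 92.8 and 78.8 CPM in PCBP1-OE. Control 3 was above PCBP1-OE 3, so the groups overlapped. The log2 fold change was 0.35 (SE 0.11), and the gene was not called (edgeR adjusted p = 0.0565, 1.4e-07 to 0.232 over the alternatives). It was called with no filter (1.4e-07), with limma-voom (0.0496) and without control 3 (0.00011), where the log2 fold change was 0.54.

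The subunits were also set against each other within libraries, as a description with no test, since the ratio was chosen after the values of the subunits were seen. Counts of Actr2 and Actr3 per 100 counts of the other subunits were 16.0, 16.1 and 18.1 in the controls and 20.8, 19.7 and 19.2 in PCBP1-OE. All PCBP1-OE libraries were above all controls, and control 3 and PCBP1-OE 3 were again the nearest to each other. The difference was 3.18, and it ranged from 2.70 to 3.85 when each library was left out in turn. Counts per gene do not measure the makeup of the assembled complex.

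**Figure D3:**
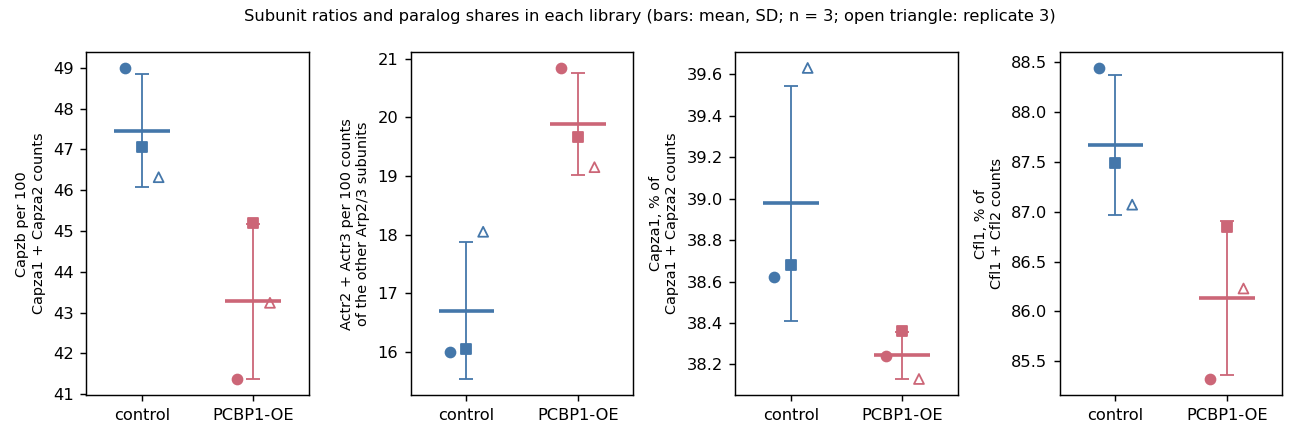
Ratios of counts within each library for control and PCBP1-OE (points, libraries; bars, mean and SD, n = 3; open triangles, replicate 3; axes do not start at 0): Capzb per 100 alpha subunit counts, Actr2 and Actr3 per 100 counts of the other Arp2/3 subunits, Capza1 as percent of Capza1 and Capza2, and Cfl1 as percent of Cfl1 and Cfl2. In each panel the groups do not overlap, and the group means of the Capzb ratio differ by -4.19 and those of the Actr2 and Actr3 ratio by 3.18.

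The paralog shares within the complex differed by less than the spread between replicates. Arpc1b held 81.3% ± 0.209 of the Arpc1b and Arpc1a counts in the controls and 81.3% ± 0.401 in PCBP1-OE (SD, n = 3, exact permutation p = 1). Arpc5 held 60.9% ± 1.31 of the Arpc5 and Arpc5l counts in the controls and 61.2% ± 0.591 in PCBP1-OE (SD, n = 3, exact permutation p = 0.8). Actr3 made up 99.5% to 99.7% of the Actr3 and Actr3b counts in each library. Arpc1b and Arpc1a both had a log2 fold change of -0.14.

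Cfl1 (ENSRNOG00000020660, chromosome 1) encodes the non-muscle cofilin. It was at 1528, 1448 and 1322 CPM in the controls and at 1203, 1237 and 1318 CPM in PCBP1-OE. Control 3 and PCBP1-OE 3 were all but equal, so the groups were separated by the narrowest of margins, whereas the remaining libraries stood well apart. Cfl1 fell from 1433 ± 104 to 1253 ± 59.3 CPM (SD, n = 3), a change of -12.6% and a log2 fold change of -0.19 (SE 0.056), with an edgeR adjusted p of 0.0476, just under the threshold.

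That call was lost in 7 of 13 alternatives, over which the adjusted p ranged from 0.00012 to 0.194. It was 0.0505 with RLE scaling and 0.0628 with upper-quartile scaling. Without control 1 it was 0.158, without control 2 0.169, without PCBP1-OE 1 0.170 and without PCBP1-OE 2 0.162. Without control 3 it was 0.00167, and the log2 fold change was then -0.25. The sign was negative in all 13.

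The related genes Cfl2, the muscle-type cofilin, and Dstn, which encodes destrin, had log2 fold changes of 0.0036 and -0.027 and were not called. Their signs changed with the libraries used, for Cfl2 without control 3 (-0.014), PCBP1-OE 1 (-0.016) or PCBP1-OE 3 (-0.021) and for Dstn without control 2 (0.022). Cfl1 held 88.4%, 87.5% and 87.1% of the Cfl1 and Cfl2 counts in the controls and 85.3%, 86.9% and 86.2% in PCBP1-OE. No library of one group fell in the range of the other, and the difference was -1.53 percentage points (exact permutation p = 0.1, adjusted 0.233). Against Dstn, the share of Cfl1 was 75.0%, 72.4% and 72.4% in the controls and 69.7%, 71.0% and 72.1% in PCBP1-OE. PCBP1-OE 3 lay just below the lowest control, and the difference was -2.31 percentage points (exact permutation p = 0.1, adjusted 0.233). Without control 1 it was -1.42 percentage points (exact permutation p = 0.2). Reads from near-identical stretches of these paralogs may be missing from the counts, since only uniquely mapped reads were counted.

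Among the 12 other cofilin family genes and regulators tested, from 13 listed, Limk1 was the only one called, beside 9.45% of all genes tested. It encodes LIM kinase 1, which phosphorylates and inactivates cofilin. Limk1 was at 123, 123 and 104 CPM in the controls and at 97.4, 93.8 and 95.5 CPM in PCBP1-OE. The PCBP1-OE libraries were close together, all below control 3. Limk1 fell by 0.29 on the log2 scale (SE 0.061, edgeR adjusted p = 0.0174, 4.6e-05 to 0.131 over the alternatives). The call was lost when any library other than control 3 was left out, with adjusted p of 0.0952 without control 1, 0.131 without control 2, 0.0777 without PCBP1-OE 1, 0.0754 without PCBP1-OE 2 and 0.0561 without PCBP1-OE 3.

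Pfn1 (ENSRNOG00000003975, chromosome 10) encodes profilin 1, the widely expressed profilin. Its level was 1659, 1607 and 1489 CPM in the controls and 1333, 1376 and 1438 CPM in PCBP1-OE. As for Cfl1, control 3 was the lowest control and PCBP1-OE 3 the highest PCBP1-OE library, but here a gap was left between them. Pfn1 fell from 1585 ± 87.6 to 1382 ± 52.9 CPM (SD, n = 3), a change of -12.8% and a log2 fold change of -0.20 (SE 0.050), with an edgeR adjusted p of 0.0321. Over the alternatives its adjusted p ranged from 6.8e-05 to 0.171 and it was called in 8 of 13. It was not called without control 1 (0.0968), control 2 (0.128), PCBP1-OE 1 (0.123) or PCBP1-OE 2 (0.123).

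Pfn2, the neuronal profilin, had 87 to 147 counts per library, and Pfn1 made up 99.5% to 99.7% of the counts of the pair in each library. Of the 3 other profilin and thymosin genes tested, from 5 listed, 2 were called, both lower. Both, Tmsb10 and Tmsb4x, encode thymosins, small proteins that hold actin monomers in reserve. Among all genes tested, 5.0% were called lower, and among the 670 genes at or above 253 CPM, 20.4%. Tmsb10 was at 1358, 1326 and 1105 CPM in the controls and at 977, 985 and 1063 CPM in PCBP1-OE, and Tmsb4x at 1107, 1092 and 931 CPM in the controls and at 866, 885 and 942 CPM in PCBP1-OE. The groups did not overlap for Tmsb10, whereas for Tmsb4x control 3 was below PCBP1-OE 3. Tmsb10 fell by 0.33 on the log2 scale (SE 0.068, edgeR adjusted p = 0.0168, 4.2e-12 to 0.122 over the alternatives) and Tmsb4x by 0.22 (SE 0.062, adjusted p = 0.0465, 2.4e-05 to 0.199). Neither was called without control 1, control 2, PCBP1-OE 1 or PCBP1-OE 2, with adjusted p of 0.0697, 0.104, 0.0828 and 0.0800 for Tmsb10 and 0.171, 0.199, 0.168 and 0.157 for Tmsb4x. Without PCBP1-OE 3 it was 0.0537 for Tmsb4x. Upper-quartile scaling also ended the call of Tmsb4x (0.0597).

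The direct regulators of the Arp2/3 complex went both ways. Of 24 tested from 28 listed, 4 were called, 2 in each direction, beside 9.45% of all genes tested. Wasf2, a WAVE protein that activates the complex, was at 6.17, 6.95 and 7.89 CPM in the controls and at 10.9, 10.7 and 10.9 CPM in PCBP1-OE. Washc4, a subunit of the WASH complex that activates Arp2/3 on endosomes, was at 11.8, 11.1 and 16.2 CPM in the controls and at 22.1, 22.6 and 20.7 CPM in PCBP1-OE. All PCBP1-OE libraries of both genes were above all controls. The log2 fold changes were 0.63 (edgeR adjusted p = 0.0130, 0.00026 to 0.0942 over the alternatives) for Wasf2 and 0.74 (adjusted p = 0.00870, 2.9e-10 to 0.0891) for Washc4.

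Brk1, a small subunit of the WAVE complex, and Arpin, an inhibitor of Arp2/3, were lower, by log2 fold changes of -0.17 (edgeR adjusted p = 0.0304, 0.0155 to 0.185 over the alternatives) and -0.22 (adjusted p = 0.0335, 0.0105 to 0.132). For both, all PCBP1-OE libraries were below all controls. Of the 4 regulators called, Washc4, Wasf2, Brk1 and Arpin, 0 stayed called without control 2 (adjusted p from 0.0664 for Washc4 to 0.185 for Brk1). Without control 1, PCBP1-OE 1 or PCBP1-OE 2, only Washc4 stayed called, and without PCBP1-OE 3, Washc4 and Wasf2.

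Formins and Ena/VASP proteins elongate unbranched filaments and compete with capping protein for barbed ends. The list that held them together with other nucleators such as Spire1, Spire2 and Cobl gave 3 calls among 16 genes tested from 22 listed, beside 9.45% of all genes tested. Evl was at 35.0, 36.0 and 31.1 CPM in the controls and at 27.6, 25.4 and 24.5 CPM in PCBP1-OE, and fell by 0.40 on the log2 scale (edgeR adjusted p = 0.0132, 2.3e-05 to 0.0922 over the alternatives). The formin Fmnl2 was higher by 0.45 (adjusted p = 0.0268, 0.00083 to 0.137) and the formin Daam1 by 0.23 (adjusted p = 0.0457, 0.0248 to 0.165). In all 3 the groups did not overlap. Without control 1, control 2 or PCBP1-OE 2, 0 of the 3 stayed called (lowest adjusted p 0.0608, 0.0922 and 0.0644, each for Evl), and without PCBP1-OE 1 or PCBP1-OE 3, Evl alone. DESeq2 did not call Daam1 (0.0629).

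**Figure D4:**
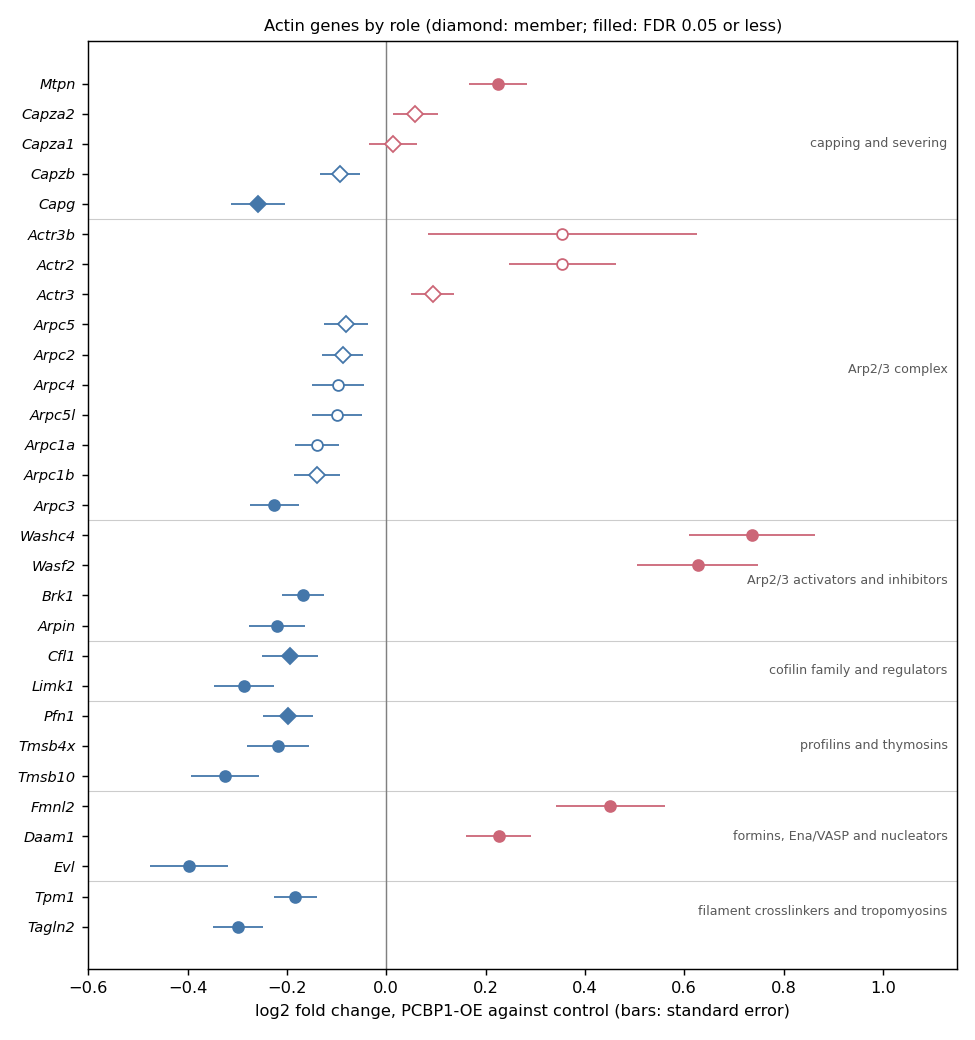
Log2 fold changes, PCBP1-OE against control, with standard errors (n = 3 per group), of the 10 members (diamonds), all genes of the Arp2/3 complex and the genes called in the other roles shown, ordered by role; filled symbols have an FDR of 0.05 or less. Actr2, Actr3 and Actr3b lie to the right of 0 and all Arpc genes to the left, from -0.081 for Arpc5 to -0.23 for Arpc3.

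Altogether, 108 other actin genes were tested, of 135 listed and 129 matched. Of these 16 were called, 6 higher and 10 lower, beside 9.45% of all genes tested, and their median log2 fold change was -0.022. Control 3 was the control nearest to the PCBP1-OE mean for 5 of the 10 members and for all 3 members called, for 13 of the 16 other actin genes called, for 878 of the 1193 genes called in the whole table, and for 6318 of all 12624 genes tested. This pattern of the libraries was thus not limited to the actin genes, and its cause was not tested.

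The number of members called followed the libraries. It was 4 without control 3, 3 without PCBP1-OE 3 and 0 when any of the other 4 libraries was left out, and in each of those fits 4 members had an unadjusted edgeR p under 0.05. In the whole table, 2860 genes were called without control 3, 697 without PCBP1-OE 3, 246 without control 1, 48 without control 2, 169 without PCBP1-OE 1 and 136 without PCBP1-OE 2. With all libraries, 5 members had an unadjusted p under 0.05, DESeq2 called 4 members and limma-voom 3.

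**Figure D5:**
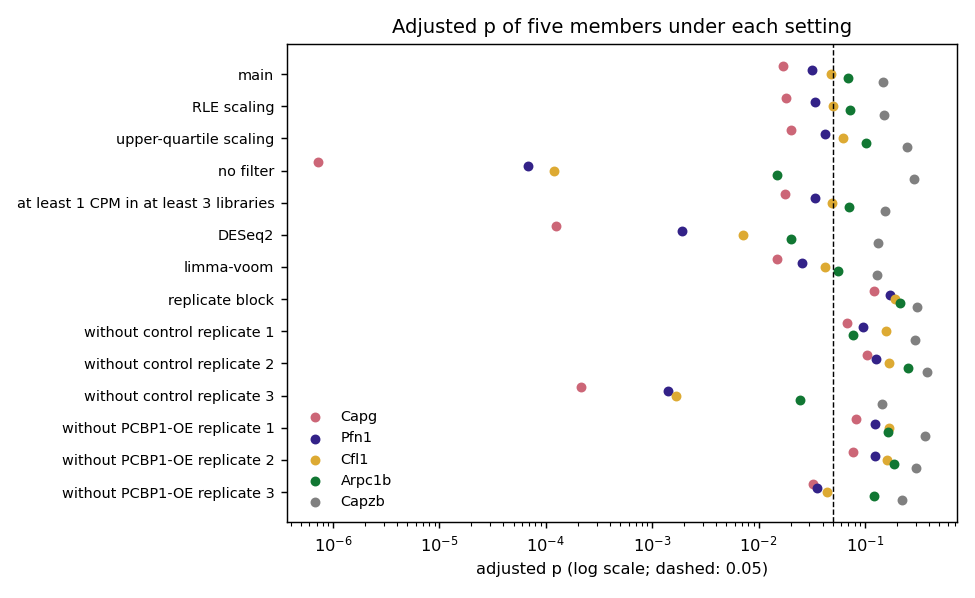
Adjusted p (log scale) of Capg, Pfn1, Cfl1, Arpc1b and Capzb under the main setting and 13 alternatives, with the threshold of 0.05 dashed. Capg, Pfn1 and Cfl1 pass in the main setting and lie to the right of the threshold without control 1, control 2, PCBP1-OE 1 or PCBP1-OE 2, while Capzb does not pass in any setting.

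Markers of other cell types were set beside these values. Sox10, the glial marker with the most counts, was at 389, 408 and 402 CPM in the controls and at 362, 375 and 365.5 CPM in PCBP1-OE. The fibroblast markers, 3 of 4 in the table and led by Pdgfra, summed to 226.5, 229 and 224 CPM in the controls and to 209, 199 and 211 CPM in PCBP1-OE. Pdgfra made up almost all of this sum, and Col1a1, the other fibroblast marker tested, averaged 3.16 CPM in the controls and 3.38 CPM in PCBP1-OE, overlapping, with a log2 fold change of 0.10 (SE 0.17, adjusted p = 0.7475). Both Sox10 and the fibroblast sum were lower in each PCBP1-OE library than in each control, as for Capg, Cfl1 and Pfn1, while Dcn, a fibroblast marker, was at 0 to 5 counts. Neither Sox10 (edgeR adjusted p = 0.0790, 0.0399 to 0.287 over the alternatives) nor Pdgfra (adjusted p = 0.0644, 0.0345 to 0.262) was called. DESeq2 called both, and Pdgfra was also called without control 3 (0.0345). The 7 chromaffin markers in the table, led by Th, summed to 10.1 to 11.4 CPM in all libraries. Leukocyte markers, 3 of 4 in the table and led by Cd68, reached at most 7.52 CPM with Ptprc at 0 to 3 counts, the muscle markers at most 3.72 CPM and the endothelial marker Cdh5 at most 0.446 CPM. Of the markers tested, Ckm, the muscle creatine kinase, was the only one called. It was at 2.14, 2.20 and 2.27 CPM in the controls and at 1.50, 1.14 and 1.23 CPM in PCBP1-OE, all lower, a log2 fold change of -0.77 (SE 0.22, adjusted p = 0.0477, 0.0382 to 0.162 over 12 alternatives). Des, the other muscle marker tested, averaged 1.24 CPM in the controls and 1.63 CPM in PCBP1-OE and was not called, with a log2 fold change of 0.40 (SE 0.30, adjusted p = 0.404). The call of Ckm was lost when any library was left out, with adjusted p of 0.120 without control 1, 0.162 without control 2, 0.0513 without control 3, 0.117 without PCBP1-OE 1, 0.158 without PCBP1-OE 2 and 0.113 without PCBP1-OE 3, as with upper-quartile scaling (0.0533) and limma-voom (0.0536). The part of these markers in the actin results was not tested.

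The 250 bases upstream of the gene start were available for 9 of the 10 members, from RefSeq (build GRCr8). They are shown for Cfl1 and Pfn1, which were called lower together, and for Actr3, whose groups were separated in the other direction. Capitals mark GGGCGG, the core of the GC box, on either strand, and overlapping matches run together.
Cfl1: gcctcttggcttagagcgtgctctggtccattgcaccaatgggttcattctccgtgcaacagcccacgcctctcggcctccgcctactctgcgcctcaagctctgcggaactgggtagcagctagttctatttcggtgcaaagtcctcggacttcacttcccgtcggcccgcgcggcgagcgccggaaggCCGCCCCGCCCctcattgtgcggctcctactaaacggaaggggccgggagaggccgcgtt
Pfn1: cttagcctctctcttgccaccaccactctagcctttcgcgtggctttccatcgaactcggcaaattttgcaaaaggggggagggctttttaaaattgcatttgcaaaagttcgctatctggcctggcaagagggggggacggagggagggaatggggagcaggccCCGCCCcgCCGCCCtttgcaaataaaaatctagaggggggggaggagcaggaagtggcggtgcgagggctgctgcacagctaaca
Actr3: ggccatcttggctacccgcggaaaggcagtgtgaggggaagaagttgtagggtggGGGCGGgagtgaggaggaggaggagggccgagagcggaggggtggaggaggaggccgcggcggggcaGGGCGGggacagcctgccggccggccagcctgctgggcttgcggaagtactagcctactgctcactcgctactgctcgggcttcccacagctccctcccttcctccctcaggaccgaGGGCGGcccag

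The Cfl1 stretch lies at chr1:212226874-212227123 on the plus strand, the Pfn1 stretch at chr10:55866588-55866837 on the minus strand and the Actr3 stretch at chr13:39396510-39396759 on the minus strand. GGGCGG was present on either strand in all 9 members and in 32.4% of 27457 promoters of the same length, 2 times each for Cfl1 and Pfn1 and 3 times for Actr3. Those 27457 promoters were not matched to the members for expression or for GC content, which was 56.4% to 77.2% in the 9 members. CCAAT was found in Capzb and Cfl1, 2 of 9, and in 34.3% of all promoters. TATAAA was found in 0 of 9 and in 13.1%, and the CArG box, the motif of serum response factor, in 0 of 9 and in 1.50%. The motif GGGCGG was thus present in genes of either sign, and a match describes the letters only.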

How the data were processed

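The authors cleaned reads with FASTX-Toolkit, used TopHat2 for alignment to the rat build Rnor_6.0 and deposited raw counts of uniquely mapped reads per gene. The submitters' processing notes name the human build GRCh38 instead, but all gene IDs used here are rat. How reads were assigned to genes (tool, strand, annotation) is not given in the sources used here. Counts where genes overlap or have near-identical copies are therefore uncertain. The methods and the labels name different stranded library kits.

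Libraries were grouped by their labels. edgeR 4.0.16 (R 4.3.3) was run on the whole table with TMM scaling. Its filterByExpr, with a count minimum of 10 and a total minimum of 15, removed 7985 genes. The quasi-likelihood test compared 3 PCBP1-OE with 3 control libraries, with Benjamini-Hochberg adjustment over all 12624 genes tested. Paralog shares were tested by two-sided exact permutation in Python 3.11.15 (numpy 2.4.6). The edgeR, DESeq2 and limma-voom fits were checked on simulated counts with known fold changes. The counts of calls and the fold changes of the members, the other actin genes called, Actr2, Cfl2, Dstn, Ckm, Sox10 and Pdgfra were recomputed with RLE or upper-quartile scaling, without a filter, with a filter of 1 CPM in 3 libraries, with DESeq2 1.42.0 or limma-voom (limma 3.58.1), with replicate numbers as a block, and after omitting each library. Shares were recomputed as a log2 ratio with a pseudocount of 0.5, with the block and after omitting each library, and subunit ratios after omitting each library only.

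Named genes are the 10 members, their paralogs, the genes of each listed role at FDR 0.05 or less (where over 5, those with the largest change) and the cell type markers. Actr2 was singled out after its values were seen. The members and lists were chosen with earlier results of these data known. List genes were matched by symbol, 8 of them by a RefSeq synonym. Isoforms were not analysed here. A few listed genes enter the totals without being reported by name.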

Additional observations from a re-analysis of the deposited data

How the results depend on the processing

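The log2 fold changes of 9 of the 10 members kept their sign in all 13 alternatives. Capza1, not called in any, ran from -0.016 to 0.045 with each library left out, and was negative without control replicate 1 and PCBP1-OE replicate 1 (-0.0078). Cfl2 ran from -0.021 to 0.054 (-0.014 without control replicate 3, -0.016 without PCBP1-OE replicate 1) and Dstn from -0.052 to 0.022. Among all genes, 1193 were called, and 2090 with no filter. With each library left out in turn, 48 to 2860 genes, 0 to 4 members and 0 to 29 other actin genes were called. Upper-quartile scaling gave 655 higher and 427 lower calls, against 562 and 631 with TMM. The cause was not tested.

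With the replicate block, 16 genes, 0 members and 0 other actin genes were called, against 1193, 3 and 16, while 4 members had an unadjusted p under 0.05. Deviations of same-numbered libraries from their group means correlated at r = -0.078, -0.051 and -0.043, and no library correlated best with its own number. Such values cannot settle whether same-numbered libraries were prepared together, which the sources used here do not state.

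The Arpc1b share differed by -0.0015 percentage points, and by -0.188 to 0.210 with each library left out, with 0.0772 and 0.0384 without control replicates 2 and 3. On the log2 ratio scale it differed by 5.66e-08. The Arpc5 share differed by 0.2965 points, and by -0.2765 to 1.01, with -0.041 without PCBP1-OE replicate 1.

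Depth was similar in all libraries, and replicates differed beyond sampling noise (chi-square per gene 5.85 to 17.2).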

Other observations

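Further actin genes were listed by role. Of 15 filament crosslinkers and tropomyosins tested from 20 listed, 12 had a negative log2 fold change and 2 were called lower, with a median of -0.079. Among all 12624 genes tested, 6254 were negative, 5.0% were called lower and the median was 0.0029, while the 670 genes at or above 253 CPM, which not all genes of the list reach, had a median of -0.082. Tagln2, which encodes the actin-bundling transgelin 2, was at 431, 450 and 403 CPM in the controls and at 332, 357 and 354.5 CPM in PCBP1-OE. The log2 fold change was -0.30 (SE 0.050, edgeR adjusted p = 0.00839, 6.9e-08 to 0.0891 over the alternatives). The groups were wide apart. Tpm1, a tropomyosin that lines filaments, was at 146, 142 and 136 CPM in the controls and at 124, 124 and 126.5 CPM in PCBP1-OE, and fell by 0.18 on the log2 scale (SE 0.044, adjusted p = 0.0260, 0.0043 to 0.165). Tagln2 was not called without control 2 (0.0692). Tpm1 was called only when control 3 was the library left out, with adjusted p of 0.154 without control 1, 0.165 without control 2, 0.132 without PCBP1-OE 1, 0.102 without PCBP1-OE 2 and 0.0744 without PCBP1-OE 3.

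Of the actins, 3 of 6 listed were tested and none was called by edgeR. Actb was at 1981, 1990 and 2133 CPM in the controls and at 1990, 2010 and 1901 CPM in PCBP1-OE, and Actg1 at 714, 741 and 793 CPM and at 731, 696 and 691 CPM. For Actb and Actg1 the groups overlapped and control 3 was the highest library, unlike for Cfl1 and Pfn1, where it was the lowest control. Their log2 fold changes were -0.049 (SE 0.046, edgeR adjusted p = 0.523) and -0.086 (SE 0.049, adjusted p = 0.264). Acta1, the skeletal muscle actin, was at 0.561, 0.862 and 0.892 CPM in the controls and at 0.5445, 0.198 and 0.357 CPM in PCBP1-OE. Its groups did not overlap, by a narrow margin, and its log2 fold change was -1.05 (SE 0.42, adjusted p = 0.123).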
